A study of Mus musculus with 30 samples.

Results

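The comparison described here is that of stimulated with unstimulated mouse calcaneus after 5 days, across all genes. The calcaneus is the heel bone, into which the calf muscles pull through the Achilles tendon. All samples with the label for stimulated bone at day 5 (3 libraries) and all with the label for unstimulated bone at day 5 (3 libraries) were taken, 6 of the 30 RNA sequencing samples of the study, which also covers Achilles tendon, day 12 and naive tissue at day 0. The stimulated and the unstimulated groups, like the naive one, carry the genotype label Acta1,Ai32. Acta1 encodes skeletal muscle actin and Ai32 denotes an allele with a channelrhodopsin, an ion channel opened by light, so that light can make muscle contract. The titles add the word control to both groups, while the treatment labels use it for unstimulated bone alone, and the groups were taken as stimulated and unstimulated. The labels do not say which promoter drives the light-gated channel, or whether unstimulated limbs were lit or belonged to the stimulated animals. Nor do they say whether replicates are separate animals. The p-values thus cover no more than the variation among libraries, part of which may be technical. For the 5-day comparison that variation was estimated over all bone libraries, day 12 and naive ones included.

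Osteoblasts build the collagen matrix and mineralise it under the transcription factors RUNX2 and osterix. Osteocytes, which are osteoblasts walled into the matrix, sense strain and release sclerostin, a brake on Wnt signals that stimulate bone formation. Osteoclasts, large cells of the monocyte lineage, fuse and resorb bone under RANKL, a ligand made by osteoblast-lineage cells that the decoy receptor osteoprotegerin binds. Mechanical loading is known for shifting the balance between building and resorbing cells.

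No gene passed an adjusted p of 0.05 between stimulated and unstimulated bone at 5 days. With edgeR's quasi-likelihood test, 0 of 18851 genes tested (0%) were called, and 1522 (8.07%) had an unadjusted p under 0.05, of which 854 (4.53%) were higher and 668 (3.54%) lower in stimulated bone. The smallest p above 0 was that of Podnl1, a proteoglycan gene, and the smallest below 0 that of Dmkn, a gene of skin. The stimulated libraries lay wholly above the unstimulated ones in 2777 genes (14.7%) and wholly below them in 2625 (13.9%). The median log2 fold change of all genes was 0.0025, and 50.5% of genes stood above 0. DESeq2 called 49 genes on the same libraries, 27 higher and 22 lower, so the count depends on the test.

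The unstimulated group held a pair of libraries, replicates 1 and 2, that were nearly identical. They differed with a biological coefficient of variation of 2.64%, against 13.2% to 33.2% in the other 14 pairs within bone groups, and 10.7% of genes differed between them at a p under 0.05, against 38.0% to 55.6%. They differed by more than sampling noise, and were summed into 1 library, the pair, which left 3 stimulated and 2 unstimulated libraries. An exact two-sided rank-sum test of 3 against 2 cannot go below a p of 0.2. The stimulated libraries summed to 24798436, 23378911 and 22261474 counts, against 52568316 in the pair and 26493016 in unstimulated library 3. No listed marker of osteoblasts, osteocytes or osteoclasts was at 0 throughout a group.

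The libraries differed in the shares of counts taken by marker genes of other tissues. Whether this RNA came from tissue beside the bone was not tested. Tendon fibroblast genes took 0.648%, 0.606% and 0.672% of the counts of the stimulated libraries, against 0.774% in the unstimulated pair and 1.12% in unstimulated library 3. Skin keratinocyte genes took 0.00833%, 0.0109% and 0.00769% in the stimulated libraries, against 0.0372% in the pair and 0.0102% in library 3. Each unstimulated library thus stood apart in another list, the pair in skin genes and library 3 in tendon genes. Muscle fibre genes took 2.91%, 0.864% and 0.766% in the stimulated libraries, against 2.51% and 2.66% in the unstimulated ones. Stimulated library 1 was close to the unstimulated ones in muscle genes and the other two were not. In bulk samples, fewer cells of a type and less RNA per cell cannot be told apart.

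**Figure D1:**
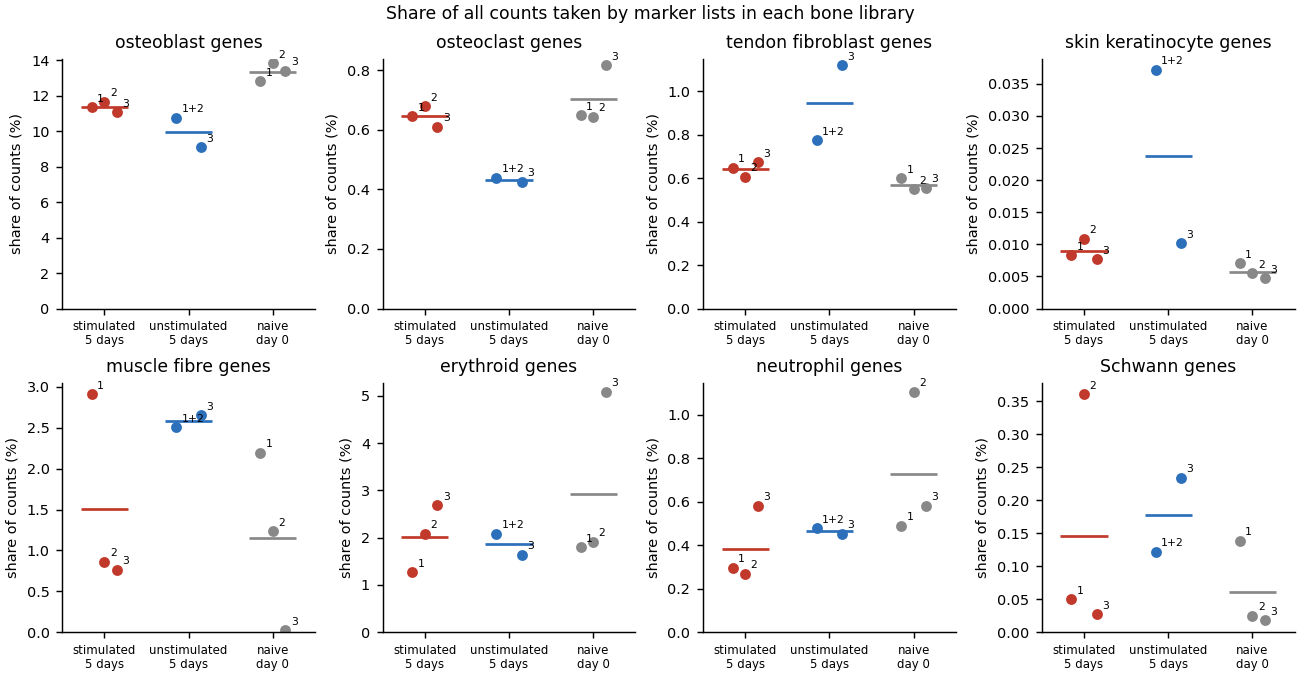
Share of all counts (percent, linear axes from 0) that 8 marker lists take in each bone library, with 5-day stimulated libraries on the left, 5-day unstimulated ones in the middle and naive ones on the right; each point is a library, its number beside it (1+2 is the summed pair), and lines are group means. Osteoclast shares separate the 5-day groups, at 0.610% to 0.679% and 0.426% to 0.439%, while muscle and Schwann shares vary as much within a group as between groups.

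Genes of osteoblasts stood together above 0. All 21 listed osteoblast genes had a log2 fold change above 0, with a median of 0.33, where 50.5% of all genes tested stood above 0. At an unadjusted p under 0.05, 11 were higher and 0 lower, and in 15 the stimulated libraries lay wholly above the unstimulated ones, against 4.53% and 14.7% of all genes, while 0 passed the adjusted threshold. The list took 11.4%, 11.7% and 11.1% of the counts of the stimulated libraries, against 10.8% and 9.09% in the unstimulated ones. Naive bone stood above all of these, at 12.8% to 13.8%. The unstimulated mean lay under the naive range in 20 of the 21 genes and the stimulated mean in 10. The ends of the list were Col1a2, at 0.04, and Ibsp, at 0.90. The median was 0.51 without the unstimulated pair and 0.24 without unstimulated library 3.

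The transcription factors come first. Sp7, which encodes osterix, was at 222, 203 and 217 CPM (counts scaled to the size of the library) in stimulated bone, against 161 and 123 CPM in unstimulated bone. The lowest stimulated library lay above the higher unstimulated one, and the log2 fold change was 0.59 ± 0.12 (standard error, edgeR, adjusted p = 0.441). Naive bone at day 0 held 206 to 224 CPM of Sp7, a range that contains 2 of the 3 stimulated values and neither unstimulated one. Runx2, the gene for the factor that commits cells to the osteoblast lineage, was at 104, 97.8 and 103 CPM, against 87.3 and 74.6 CPM (0.33 ± 0.11, adjusted p = 0.536). The groups did not overlap, and both stood under the naive range of 108 to 126 CPM.

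The matrix and receptor genes of osteoblasts differed unevenly. Ibsp, which encodes bone sialoprotein, a nucleator of mineral, was at 1242, 971 and 1345 CPM in stimulated bone, against 658 and 610 CPM in unstimulated bone (log2 fold change 0.90 ± 0.22, adjusted p = 0.467). Mmp13, the collagenase of bone and growth cartilage, was at 629, 723 and 701 CPM, against 417 and 460 CPM (0.64 ± 0.20, adjusted p = 0.526). Pth1r, the receptor of parathyroid hormone, was at 229, 251 and 255 CPM, against 169 and 166 CPM (0.55 ± 0.15, adjusted p = 0.493). In all 3 genes the stimulated libraries lay above both unstimulated ones. Bglap and Col1a1 stood closer. Bglap, the gene of osteocalcin, was at 1461, 1715 and 1917 CPM in stimulated bone, against 1716 and 1294 CPM in unstimulated bone (0.17 ± 0.21, adjusted p = 0.850), and the groups overlapped. Col1a1, a chain of type I collagen, was at 40310, 39990 and 37510 CPM, against 37280 and 29370 CPM (0.24 ± 0.15, adjusted p = 0.717). Its groups did not overlap, but the nearest libraries of the groups were almost level.

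RUNX2 binds the core sequence TGTGGT, read as ACCACA on the other strand, and the osteocalcin promoter is a textbook target. The 250 bases before the RefSeq start of each gene, on GRCm38.p6, were searched for these letters on both strands. RefSeq starts can differ from those of the annotation used for coordinates. In that annotation Runx2 starts within its window, at 44814797. Of the 12667 genes tested that have such a window 13.6% held a match. Of the 13 osteoblast genes that have one 4 did (30.8%), of 11 osteoclast genes 3 (27.3%) and of 8 tendon fibroblast genes 1 (12.5%). A match is a description of letters and not a binding site. The windows of Runx2 (chr17:44814628-44814877, minus strand), Mmp13 (chr9:7272264-7272513, plus strand) and Bglap (chr3:88384467-88384716, minus strand) are shown 5′ to 3′ because each holds 1 match, in capitals, and because their genes were described above.
Runx2: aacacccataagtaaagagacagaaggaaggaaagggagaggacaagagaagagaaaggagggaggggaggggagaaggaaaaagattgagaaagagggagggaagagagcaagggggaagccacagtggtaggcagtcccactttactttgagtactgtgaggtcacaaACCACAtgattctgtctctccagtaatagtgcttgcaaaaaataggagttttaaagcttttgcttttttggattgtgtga
Mmp13: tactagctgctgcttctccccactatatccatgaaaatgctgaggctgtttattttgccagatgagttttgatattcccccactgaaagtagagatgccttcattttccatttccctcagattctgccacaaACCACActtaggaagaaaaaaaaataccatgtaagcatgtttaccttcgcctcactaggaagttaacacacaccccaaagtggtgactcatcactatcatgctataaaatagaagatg
Bglap: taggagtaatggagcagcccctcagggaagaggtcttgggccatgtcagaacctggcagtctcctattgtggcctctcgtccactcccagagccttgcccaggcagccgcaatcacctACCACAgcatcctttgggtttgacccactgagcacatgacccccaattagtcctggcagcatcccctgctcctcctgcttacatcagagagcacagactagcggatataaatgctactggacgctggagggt
The match began 80 bases before the RefSeq start in Runx2, 118 in Mmp13 and 132 in Bglap. Genes with the same match thus had log2 fold changes of 0.33, 0.64 and 0.17.

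Of 9 listed osteocyte genes 7 stood above 0 and 2 below, 0 at an unadjusted p under 0.05, with a median of 0.18. In 1 of them the stimulated libraries lay wholly above the unstimulated ones, as in 14.7% of all genes. The median was 0.0193 without unstimulated library 3 and 0.0396 without stimulated library 1. Sost, which encodes sclerostin, was at 19.5, 8.57 and 19.0 CPM in stimulated bone, against 21.4 and 15.7 CPM in unstimulated bone (log2 fold change -0.25 ± 0.39, adjusted p = 0.885). One stimulated library was low and the other two lay among the unstimulated ones. Dmp1, a matrix protein gene of osteocytes, was at 308, 206 and 205 CPM, against 234 and 150 CPM (0.32 ± 0.25, adjusted p = 0.761). Mepe, another phosphate-linked matrix gene, was at 33.4, 15.9 and 26.4 CPM, against 20.8 and 17.2 CPM (0.41 ± 0.38, adjusted p = 0.802). The spread within the stimulated group was wider than the distance between groups in all 3 genes.

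Genes of osteoclasts also stood above 0. Of 20 listed genes 19 were above 0, with a median of 0.36; 9 were higher and 0 lower at an unadjusted p under 0.05, 14 had libraries wholly higher and 1 wholly lower, and 0 passed the adjusted threshold. Of all genes 4.53% were higher at that p, and 14.7% were wholly higher and 13.9% wholly lower. The list took 0.646%, 0.679% and 0.610% of the counts of stimulated libraries, against 0.439% and 0.426% of those of unstimulated ones, and 0.644% to 0.817% in naive bone. With the tendon gene score of each library as a covariate, a score that itself differed between the groups, the median was 0.17. The 12 macrophage genes, which mark other cells of the monocyte lineage, had a median of -0.13, with 3 above 0 and 9 below.

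Receptors and fusion genes led the osteoclast list. Oscar, an immune receptor that co-stimulates osteoclast formation, was at 12.4, 12.4 and 10.9 CPM in stimulated bone, against 6.61 and 5.81 CPM in unstimulated bone (log2 fold change 0.93 ± 0.25, adjusted p = 0.470). Ocstamp was at 20.8, 20.4 and 21.9 CPM, against 12.3 and 12.9 CPM (0.74 ± 0.22, adjusted p = 0.518). Dcstamp was at 19.1, 17.7 and 16.5 CPM, against 10.6 and 11 CPM (0.72 ± 0.27, adjusted p = 0.548). Ocstamp and Dcstamp encode the membrane proteins that osteoclast precursors need to fuse, and in both genes the libraries within a group were close and the groups far apart. Of the genes for resorption, Acp5, the tartrate-resistant acid phosphatase, was at 1686, 1678 and 1763 CPM, against 1033 and 1139 CPM (0.65 ± 0.25, adjusted p = 0.552). Ctsk, the protease cathepsin K, was at 1883, 1798 and 1679 CPM, against 1125 and 1153 CPM (0.65 ± 0.26, adjusted p = 0.568). Mmp9, a gelatinase of osteoclasts and neutrophils, was at 1662, 1758 and 1538 CPM, against 1249 and 1173 CPM (0.45 ± 0.19, adjusted p = 0.583). Clcn7, a chloride transporter gene of the ruffled border, differed least among these. It was at 86.9, 90.1 and 82.8 CPM, against 78.3 and 70.1 CPM (0.22 ± 0.08, adjusted p = 0.548).

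The cytokines that drive osteoclasts were listed apart. Of 6 genes of the RANKL axis 5 stood above 0, with a median of 0.26 and 0 at an unadjusted p under 0.05. Tnfsf11, the gene of RANKL, was at 7.46, 9.62 and 11.5 CPM in stimulated bone, against 7.39 and 6.89 CPM in unstimulated bone (log2 fold change 0.41 ± 0.28, adjusted p = 0.726). Tnfrsf11b, the gene of osteoprotegerin, was at 31.1, 13.3 and 16.3 CPM, against 16.4 and 15.1 CPM (0.36 ± 0.32, adjusted p = 0.788), and stood at -0.09 without stimulated library 1, the high one. Csf1, a growth factor of the monocyte lineage, was at 125, 126 and 127 CPM, against 105 and 107 CPM (0.25 ± 0.11, adjusted p = 0.620). The Csf1 values were close within each group and did not overlap.

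The 12 genes with the smallest p above 0, chosen by p among those whose libraries did not overlap, had log2 fold changes from 0.38 to 1.22 and adjusted p-values from 0.134 to 0.467. Since the choice used this contrast, their values are a description. Podnl1, a small leucine-rich proteoglycan gene (ENSMUSG00000012889, chr8:84125989-84132527 on GRCm38, plus strand, protein-coding), was at 38.8, 48.1 and 45.0 CPM in stimulated bone, against 24.9 and 22.6 CPM in unstimulated bone. Ptprv, the gene of an osteoblast tyrosine phosphatase also known as osteotesticular phosphatase (ENSMUSG00000097993, chr1:135108497-135132594, minus strand, annotated as a processed transcript), was at 18.2, 21.3 and 20.7 CPM, against 12.0 and 10.1 CPM. Arhgef19, a guanine nucleotide exchange factor gene (ENSMUSG00000028919, chr4:141239499-141257564, plus strand), was at 29.7, 30.9 and 30.4 CPM, against 20.9 and 18.4 CPM. These were the only 3 genes called when the near-identical libraries were kept apart in edgeR, with adjusted p-values of 0.0189, 0.0194 and 0.0194. That run counts the near-identical libraries as separate replicates, so its p-values can be too small. Podnl1 was called in 5 of 17 alternative analyses, and Arhgef19 and Ptprv in 3 each, that run among them.

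Vdr, the receptor of vitamin D, was at 72.5, 63.7 and 66.4 CPM in stimulated bone, against 44.8 and 38.1 CPM in unstimulated bone (log2 fold change 0.70 ± 0.13, adjusted p = 0.413). All stimulated values lay within the naive range of 61.4 to 77.5 CPM and both unstimulated ones under it. The others were Bcat2, a mitochondrial aminotransferase of branched-chain amino acids (0.41 ± 0.09), the zinc finger gene Zfp583 (1.22 ± 0.26), the cadherin gene Cdh24 (0.60 ± 0.13), Msi1, which encodes an RNA-binding protein (0.50 ± 0.11), the serine protease gene Prss53 (0.88 ± 0.19), Ppan, a gene of ribosome assembly (0.38 ± 0.08), Ece2, which encodes an endothelin-converting enzyme (0.99 ± 0.23), and Sp7. Zfp583, Prss53 and Ece2 were at low levels, with stimulated means of 1.72, 4.13 and 3.22 CPM and unstimulated means of 0.720, 2.26 and 1.61 CPM. Of the 12 genes, the stimulated mean lay within the naive range in 6 and above it in 6, and the unstimulated mean lay under that range in 11.

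**Figure D2:**
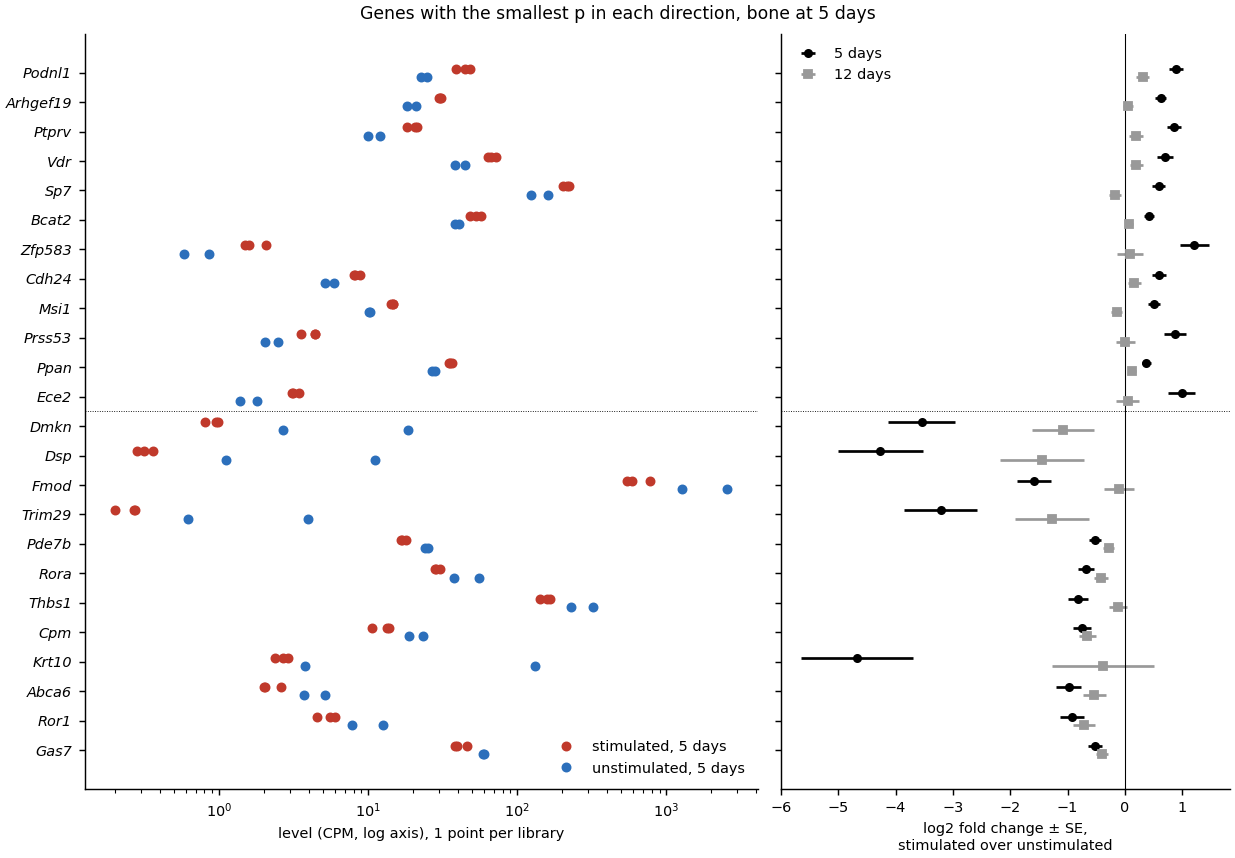
Left, level in CPM (log axis) of the 12 genes with the smallest p above 0 and the 12 below 0 in bone at 5 days, 1 point per library, with stimulated libraries drawn in the upper row of each gene and unstimulated ones in the lower row; right, log2 fold change of stimulated over unstimulated bone with its standard error at 5 and at 12 days. The spread between the unstimulated libraries is widest in the skin genes Krt10, Dsp, Dmkn and Trim29.

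The 12 genes with the smallest p below 0 had log2 fold changes from -4.68 to -0.52 and adjusted p-values from 0.294 to 0.467. They held 4 genes of skin, and the unstimulated pair was high in each. Krt10, a keratin of the upper epidermis, was at 2.68, 2.38 and 2.90 CPM in stimulated bone, against 132 CPM in the unstimulated pair and 3.76 CPM in unstimulated library 3. Dsp, a desmosome gene, was at 0.316, 0.283 and 0.362 CPM, against 11.1 CPM in the pair and 1.12 CPM in library 3. Dmkn, which encodes a secreted epidermal protein, was at 0.986, 0.808 and 0.951 CPM, against 18.6 and 2.67 CPM. Trim29, a gene of stratified epithelia, was at 0.276, 0.202 and 0.272 CPM, against 3.96 and 0.620 CPM. Of 22 listed keratinocyte genes 14 passed the filter on low counts, which high counts in the pair can help a gene to pass, so the count is a description, and those 14 stood below 0. Without the pair their median was -0.23, against -1.22 with it, and without unstimulated library 3 14 genes were called, all lower in stimulated bone and led by Krt10. That fit leaves the pair as the lone unstimulated library, assumed to vary like the other groups, and the pair was already seen to be high in skin genes, so the 14 calls compare it with stimulated bone and are no check on the condition.

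Tendon genes were low in stimulated bone beside unstimulated library 3 above all. Of 14 listed tendon fibroblast genes 13 stood below 0, with a median of -0.96; 9 were lower (against 3.54% of all genes) and 0 higher at an unadjusted p under 0.05, and 0 passed the adjusted threshold. Fmod, the gene of the collagen-binding proteoglycan fibromodulin, was at 593, 545 and 778 CPM in stimulated bone, against 1269 CPM in the pair and 2567 CPM in library 3 (log2 fold change -1.59 ± 0.29, adjusted p = 0.337). Thbs4, a matrix thrombospondin of tendon, was at 307, 165 and 317 CPM, against 589 and 1315 CPM (-1.86 ± 0.46, adjusted p = 0.470). Angptl7, a secreted angiopoietin-like gene, was at 119, 70.7 and 229 CPM, against 355 and 1223 CPM (-2.50 ± 0.58, adjusted p = 0.467). Mkx, the tendon homeobox factor Mohawk, was at 9.74, 8.57 and 10.1 CPM, against 12.9 and 18.8 CPM (-0.74 ± 0.18, adjusted p = 0.467). In each of the 4 genes both unstimulated libraries lay above all stimulated ones, library 3 the higher. The list's median was -0.54 without library 3 and -1.28 without the pair. The tendon gene score of each library was also used as a covariate. With it, 46 of the 107 named genes were smaller in size by over 1.5 times or on the other side of 0. Among them were Thbs4, at -0.06, Kera, at -0.34, and Loxl2, at -0.23. The score is the mean log2 CPM of the listed tendon genes. Thbs4 and Kera are members, so their drop was built in. The listed genes were also lower in stimulated bone as a group, so the score overlaps with the condition. Values under it cannot tell the share of tendon genes from stimulation. Naive bone held 709 to 841 CPM of Fmod, above 2 of the 3 stimulated values and below both unstimulated ones.

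The other genes among the 12 belonged to neither tissue list. Thbs1, thrombospondin 1, an activator of TGF-beta, was at 158, 142 and 167 CPM in stimulated bone, against 230 and 320 CPM in unstimulated bone (log2 fold change -0.82 ± 0.17, adjusted p = 0.441). Rora, a nuclear receptor of the circadian loop, was at 30.3, 28.5 and 28.2 CPM, against 37.6 and 55.1 CPM (-0.67 ± 0.14, adjusted p = 0.441). Pde7b, a phosphodiesterase that breaks down cyclic AMP, was at 18.1, 16.7 and 16.8 CPM, against 25.1 and 24.2 CPM (-0.52 ± 0.10, adjusted p = 0.441). Gas7, a gene first found in growth-arrested cells, was at 39.8, 46.2 and 38.2 CPM, against 59.7 and 58.8 CPM (-0.52 ± 0.12, adjusted p = 0.467). In Pde7b and Gas7 the unstimulated libraries were level with each other, unlike in the skin and tendon genes. Cpm, the gene of a carboxypeptidase, stood at -0.75 ± 0.16, the lipid transporter gene Abca6 at -0.98 ± 0.22 and the Wnt5a receptor gene Ror1 at -0.92 ± 0.21 on the log2 scale. Without unstimulated library 3 Rora stood at -0.35, Thbs1 at -0.54 and Ror1 at -0.52. In 11 of the 12 genes the unstimulated mean lay above the naive range, and in the other, Thbs1, under it.

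**Figure D3:**
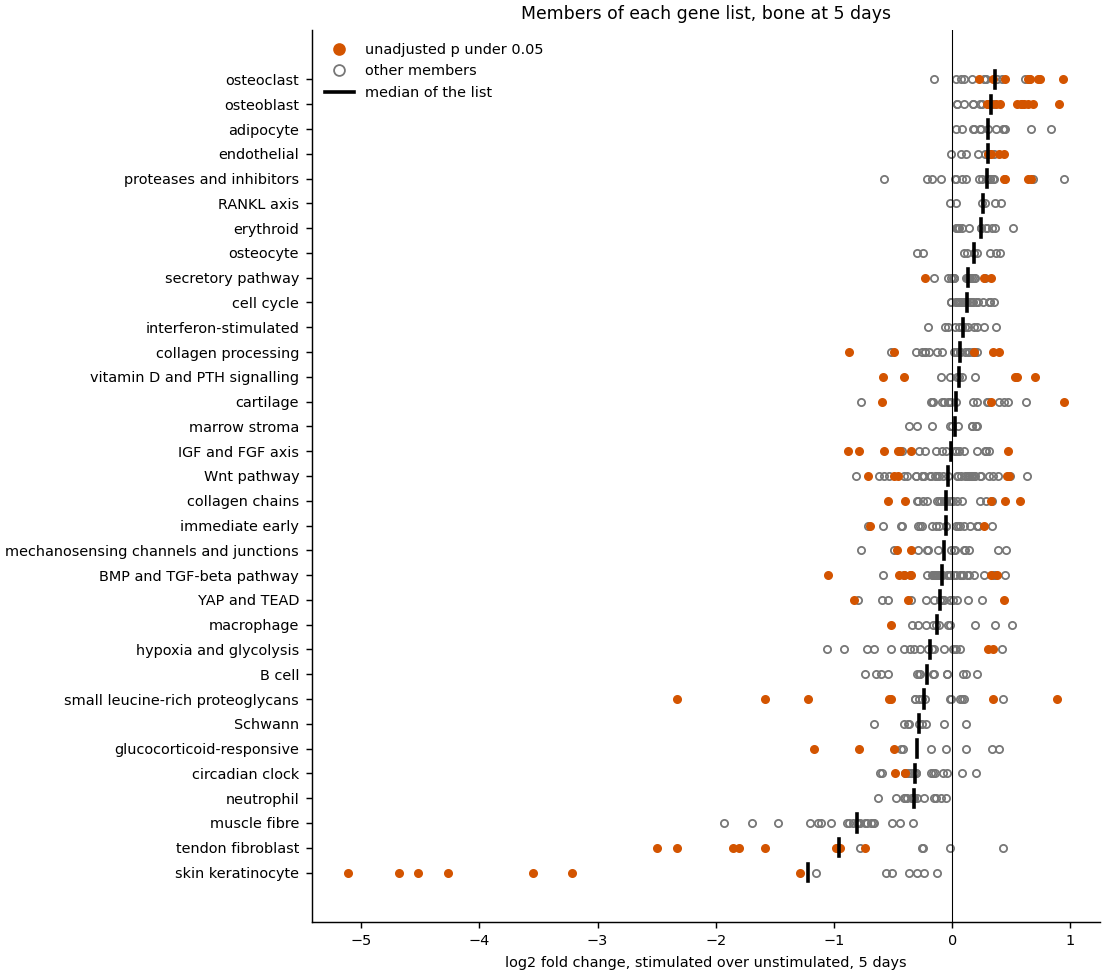
Log2 fold change of stimulated over unstimulated bone at 5 days for each tested member of 33 gene lists, ordered by the list's median (black bar), with filled points for an unadjusted p under 0.05; no point passed the adjusted threshold. Osteoclast, osteoblast, adipocyte and endothelial genes have the highest medians and skin, tendon and muscle genes the lowest.

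Matrix genes stood on both sides of 0. Of 23 collagen chain genes 9 stood above 0 and 14 below, 3 higher and 2 lower at an unadjusted p under 0.05, where 4.53% of all genes were higher and 3.54% lower. Col27a1, a fibrillar chain of cartilage, was at 208, 284 and 204 CPM in stimulated bone, against 142 and 170 CPM in unstimulated bone (log2 fold change 0.58 ± 0.21). Col8a1, a short-chain collagen of vessels, was at 42.0, 37.3 and 33.0 CPM, against 50.3 and 59.0 CPM (-0.55 ± 0.19). Col16a1 and Col11a2, the other two higher chains, stood at 0.44 ± 0.18 and 0.33 ± 0.15. Of 27 genes of collagen processing 17 were above 0, 3 higher and 2 lower. Serpinh1, the collagen chaperone HSP47 of cells that secrete collagen, was at 1087, 1064 and 1113 CPM, against 833 and 821 CPM (0.40 ± 0.15). Loxl2, a collagen cross-linking oxidase, was at 164, 159 and 174 CPM, against 257 and 350 CPM (-0.87 ± 0.22), and P3h2, a prolyl hydroxylase gene, stood at -0.49 ± 0.16. The chaperone and the cross-linking enzyme thus lay on opposite sides with no overlap between groups, and neither passed the adjusted threshold.

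Among proteases and their inhibitors 18 of 22 genes stood above 0, with a median of 0.30 and 4 higher at an unadjusted p under 0.05, against 4.53% of all genes: Mmp13, Mmp9, Adamts4 and Serpine2. Adamts4, an aggrecanase, was at 8.99, 8.69 and 10.2 CPM in stimulated bone, against 6.13 and 5.54 CPM in unstimulated bone (log2 fold change 0.67 ± 0.27). Serpine2, a protease inhibitor gene, was at 724, 654 and 768 CPM, against 514 and 543 CPM (0.44 ± 0.16). Of 18 small leucine-rich proteoglycans 6 stood above 0 and 12 below. This family held Podnl1, with the smallest p of all genes, and genes of the tendon list, among them Fmod and Kera, so the lists share members. Kera, the gene of keratocan, was at 9.35, 5.01 and 15.4 CPM, against 34.5 and 64.7 CPM (-2.32 ± 0.69), and Prelp was at 200, 192 and 230 CPM, against 282 and 683 CPM (-1.22 ± 0.34). Prelp stood at -0.42 without unstimulated library 3 and at -0.08 with the tendon gene score as a covariate. Of 21 cartilage genes 11 stood above 0, close to the 50.5% of all genes. Matn4, a matrilin, was at 52.3, 104 and 47.9 CPM, against 45.2 and 25.4 CPM (0.94 ± 0.41), with stimulated library 2 above all the others, and Ihh, the hedgehog ligand of the growth plate, was at 5.32, 10.7 and 7.06 CPM, against 10.6 and 12.7 CPM (-0.60 ± 0.27).

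Of 41 Wnt pathway genes tested 20 stood above 0 and 21 below, 2 higher and 3 lower at an unadjusted p under 0.05. The ligand gene Wnt10b, which favours osteoblasts over fat cells, was at 21.5, 21.8 and 21.6 CPM in stimulated bone, against 17.2 and 14 CPM in unstimulated bone (log2 fold change 0.46 ± 0.13). Notum, which encodes a secreted enzyme that inactivates Wnt ligands, was at 16.4, 15.9 and 14.7 CPM, against 11.5 and 11 CPM (0.48 ± 0.11). The ligand and the inactivator thus stood on the same side, with no overlap between groups. Axin2, a feedback target of the pathway, was at 9.07, 7.76 and 8.37 CPM, against 11.3 and 11.8 CPM (-0.46 ± 0.17), and stood at -0.07 with the tendon gene score as a covariate. Dkk2, a Wnt antagonist gene, was at 14.5, 23.5 and 20.6 CPM, against 30.8 and 33.3 CPM (-0.71 ± 0.28). The share of members at an unadjusted p under 0.05, 5 of 41, was near the 8.07% of all genes.

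Growth factor pathways held more genes below 0 than above it among those with a small p. Of 40 BMP and TGF-beta genes 16 stood above 0, 2 higher (against 4.53% of all genes) and 5 lower (against 3.54%) at an unadjusted p under 0.05. Bmp5, a BMP ligand, was at 29.0, 23.2 and 27.6 CPM in stimulated bone, against 35.7 and 34.7 CPM in unstimulated bone (log2 fold change -0.40 ± 0.10). The receptor genes Tgfbr3 and Bmpr1b stood at -0.35 ± 0.10 and -1.05 ± 0.39. Of 24 genes of the IGF and FGF axis 12 stood above 0, 1 higher and 6 lower. Fgfr2, a receptor of the osteoblast lineage, was at 99.5, 90.7 and 102 CPM, against 77.1 and 63.6 CPM (0.47 ± 0.11). Spry1, an inhibitor of FGF signalling, was at 53.0, 38.7 and 44.9 CPM, against 59.8 and 65.3 CPM (-0.46 ± 0.12). The receptor and its feedback inhibitor stood on opposite sides, each with groups that did not overlap. The ligand gene Fgf18, with roles in cartilage and bone growth, was at 2.48, 2.18 and 2.90 CPM, against 3.84 and 5.50 CPM (-0.88 ± 0.28), and stood at -0.05 with the tendon gene score as a covariate. Igfbp6, a binder of IGF2, was at 191, 181 and 229 CPM, against 260 and 433 CPM (-0.79 ± 0.23), and stood at 0.04 with the tendon gene score as a covariate. In vitamin D and PTH signalling 7 of 11 genes stood above 0, 3 higher and 2 lower: beside Vdr and Pth1r, Ramp3, a receptor activity modifier, stood at 0.53 ± 0.23, and Pthlh, the gene of parathyroid hormone-related protein, was at 6.04, 4.36 and 4.16 CPM, against 7.16 and 7.47 CPM (-0.59 ± 0.24).

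Genes tied to sensing load and to early response were listed next. Piezo1, the mechanically gated channel of osteoblasts and osteocytes, was at 216, 211 and 187 CPM in stimulated bone, against 197 and 184 CPM in unstimulated bone (log2 fold change 0.10 ± 0.14, adjusted p = 0.872). Counts in the lists below are to be set beside all genes. Of these 14.7% had libraries wholly higher and 13.9% wholly lower, and 4.53% were higher and 3.54% lower at an unadjusted p under 0.05. Of 16 channel and junction genes tested, 1 had libraries wholly higher and 6 wholly lower in stimulated bone. At that p 0 were higher and 2 lower, the polycystin genes Pkd1 (-0.35 ± 0.15) and Pkd2 (-0.47 ± 0.15). With the tendon gene score as a covariate Pkd1 stood at -0.04 and Pkd2 at -0.03. Trpv4, a channel opened by swelling and shear, was at 47.7, 51.0 and 45.9 CPM, against 36.4 and 34.1 CPM (0.45 ± 0.21). Of 23 immediate early genes 10 stood above 0, 1 higher and 1 lower. Ptgs2, the inducible prostaglandin synthase, was at 1.10, 1.29 and 0.770 CPM, against 0.936 and 1.05 CPM (0.10 ± 0.41, adjusted p = 0.962). Fos was at 20.3, 28.3 and 14.9 CPM, against 26.4 and 30.7 CPM (-0.43 ± 0.51, adjusted p = 0.846), and Egr1 at 63.2, 75.9 and 30.5 CPM, against 72.5 and 44.9 CPM (-0.06 ± 0.42, adjusted p = 0.979). The groups overlapped in these 3 transcripts of rapid induction. Of the pair that passed an unadjusted p of 0.05, Fosl2, a FOS relative of osteoblasts and osteoclasts, stood at 0.27 ± 0.11, and Nr4a1, an orphan nuclear receptor, was at 29.5, 35.3 and 19.5 CPM, against 45.3 and 46.0 CPM (-0.70 ± 0.30). Of 17 genes of YAP and TEAD, transducers of cell stretch, 5 stood above 0 and 12 below; 2 had libraries wholly higher and 5 wholly lower, and at an unadjusted p under 0.05 1 was higher (Tead2, 0.44 ± 0.16) and 2 lower, among them the receptor gene Axl (-0.37 ± 0.14).

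Of 10 glucocorticoid-responsive genes 7 stood below 0, 3 of them at an unadjusted p under 0.05, where 3.54% of all genes were lower. Fkbp5, a co-chaperone of the glucocorticoid receptor, was at 76.6, 46.8 and 72.7 CPM in stimulated bone, against 94.2 and 131 CPM in unstimulated bone (log2 fold change -0.78 ± 0.25). Zbtb16, a transcriptional repressor, was at 35.5, 16.3 and 15.2 CPM, against 45.9 and 54.9 CPM (-1.17 ± 0.44), and Klf9 stood at -0.49 ± 0.16. The list's median was -0.30, but 0.14 without unstimulated library 3. Of 18 circadian clock genes 16 stood below 0, with a median of -0.31, 2 of them at an unadjusted p under 0.05: the repressor genes Cry2 (-0.48 ± 0.19) and Bhlhe41 (-0.40 ± 0.15). The clock median was -0.18 without unstimulated library 3 and -0.13 with the tendon gene score as a covariate, under which Cry2 stood at 0.0171. Of 19 genes of the secretory pathway 15 stood above 0. Of the 19, 2 were higher (against 4.53% of all genes) and 1 lower at an unadjusted p under 0.05. Ddit3, a factor of the unfolded protein response, was at 19.8, 20.9 and 19.8 CPM, against 16.1 and 16.0 CPM (0.33 ± 0.10). Pdia4, a disulphide isomerase gene, stood at 0.27 ± 0.11, and Herpud1, a gene of endoplasmic reticulum degradation, at -0.23 ± 0.09. Of 20 hypoxia and glycolysis genes 7 stood above 0, 2 of these at an unadjusted p under 0.05: Vegfa, the vascular growth factor, was at 99.0, 99.0 and 94.1 CPM, against 84.7 and 68.1 CPM (0.35 ± 0.12), and Pfkl, a phosphofructokinase gene, stood at 0.31 ± 0.12. Both groups of Vegfa were apart, unstimulated library 3 the lowest.

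The vessel list leaned the same way as Vegfa. Of 12 endothelial genes 11 stood above 0, with a median of 0.30, 4 higher (against 4.53% of all genes) and 0 lower at an unadjusted p under 0.05. Emcn, the sialomucin of bone capillaries, was at 31.5, 35 and 31.3 CPM in stimulated bone, against 28.4 and 24.5 CPM in unstimulated bone (log2 fold change 0.30 ± 0.12). Tek, the angiopoietin receptor, was at 43.4, 46.0 and 37.2 CPM, against 35.8 and 31.5 CPM (0.33 ± 0.14). Plvap and Egfl7 stood at 0.43 ± 0.19 and 0.40 ± 0.18. All 4 had groups that did not overlap. The list's median was 0.10 with the tendon gene score as a covariate, a score that overlaps with the condition. All 13 adipocyte genes stood above 0, with a median of 0.30 and 0 at an unadjusted p under 0.05. Retn, which encodes resistin, was at 32.5, 25.1 and 41.2 CPM, against 19.8 and 21.8 CPM (0.66 ± 0.30), and Lep, the leptin gene, was at 24.2, 13.8 and 30.3 CPM, against 11 and 14.6 CPM (0.83 ± 0.50). Stimulated library 3 was the highest in both, and the list's median was 0.15 without it.

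Lists of muscle, nerve and marrow cells varied with single libraries. All 21 muscle fibre genes stood below 0, with a median of -0.80 and 0 at an unadjusted p under 0.05. Acta1, the gene named in the genotype, was at 5027, 1667 and 1635 CPM in stimulated bone, against 4657 and 5040 CPM in unstimulated bone (log2 fold change -0.80 ± 1.22, adjusted p = 0.882). Myh7, the slow myosin, was at 158, 74.0 and 46.6 CPM, against 266 and 441 CPM (-1.93 ± 1.5, adjusted p = 0.761). Naive bone, whose spread also enters the fit, ranged from 31.5 to 4209 CPM of Acta1. The muscle median was -1.75 without stimulated library 1 and 0.66 with the tendon gene score as a covariate. Of 9 Schwann cell genes 8 stood below 0, but the sign of the list was not stable: Mbp, a myelin gene, was at 79.5, 489 and 39.2 CPM, against 218 and 421 CPM (-0.66 ± 1.08, adjusted p = 0.892), and the list's median of -0.28 stood at -1.71 without stimulated library 2 and at 0.18 without unstimulated library 3. All 16 neutrophil genes stood below 0, with a median of -0.33 and 0 at an unadjusted p under 0.05. Mpo, a granule enzyme of neutrophil precursors, was at 222, 217 and 316 CPM, against 343 and 321 CPM (-0.40 ± 0.36, adjusted p = 0.795), and Elane, neutrophil elastase, at 70.3, 62.4 and 99.0 CPM, against 101 and 105 CPM (-0.41 ± 0.36, adjusted p = 0.787). The neutrophil median was -0.77 without stimulated library 3 and -0.10 without stimulated library 2. All 13 erythroid genes and 21 of 23 cell cycle genes stood above 0, with medians of 0.24 and 0.13. The erythroid median was 0.0394 without unstimulated library 3 and -1.14 with the tendon gene score as a covariate, and the cell cycle median was -0.0123 without stimulated library 3 and -0.54 with that score. Of 14 B cell genes 11 stood below 0, with a median of -0.22, of 10 marrow stroma genes 5, and of 12 interferon-stimulated genes 3. None of these last 5 lists had a gene at an unadjusted p under 0.05. Among macrophage genes, Cd163, a scavenger receptor, had one, at 27.4, 27.1 and 37.3 CPM, against 46.0 and 41.6 CPM (-0.52 ± 0.19, adjusted p = 0.546).

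The difference at 12 days was set against that at 5 days, from libraries that do not overlap. At 12 days edgeR called 7 of the 18851 genes (0.0371%), with 7.19% higher and 7.44% lower at an unadjusted p under 0.05, and for the change of the difference between the days it called 0, with 2008 genes (10.7%) at an unadjusted p under 0.05. Of all genes 47.8% had the same sign at both days. Of the 854 genes higher at 5 days at an unadjusted p under 0.05 50.6% did, and of the 668 lower ones 61.7%. Of the 12 named higher genes 10 and of the 12 named lower genes 12 did. The osteoblast list did not keep its sign: 2 of 21 genes stood above 0 at 12 days, with a median of -0.23, against 21 of 21 and a median of 0.33 at 5 days. In 16 of the 21 the 5-day difference was above the 12-day one at an unadjusted p under 0.05, where 5.91% of all genes were, and 0 passed the adjusted threshold. Ibsp, for one, stood at 0.90 at 5 days and -0.08 at 12 days (difference 0.98, adjusted p = 0.430). Osteoclast genes had a median of 0.36 at 5 days and 0.09 at 12 days, with 13 of 20 above 0 at the later day. Adipocyte genes were above 0 in 13 of 13 at 5 days and in 0 of 13 at 12 days, and neutrophil genes in 0 of 16 and 16 of 16, with medians of -0.33 and 1.01. Of the single genes, Lgr6, a receptor of R-spondins that enhances Wnt signals, had the smallest p, at 0.19 at 5 days and -1.31 at 12 days (difference 1.49 ± 0.21, adjusted p = 0.222). Notum stood at 0.48 and -0.47 (0.95 ± 0.15, adjusted p = 0.280), and Hey1, a Notch target, at 0.34 and -0.47 (0.81 ± 0.13, adjusted p = 0.280). None of the 3 passed with edgeR on these libraries, and Lgr6 did in 3 of 8 alternative analyses and Notum and Hey1 in 1 each.

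**Figure D4:**
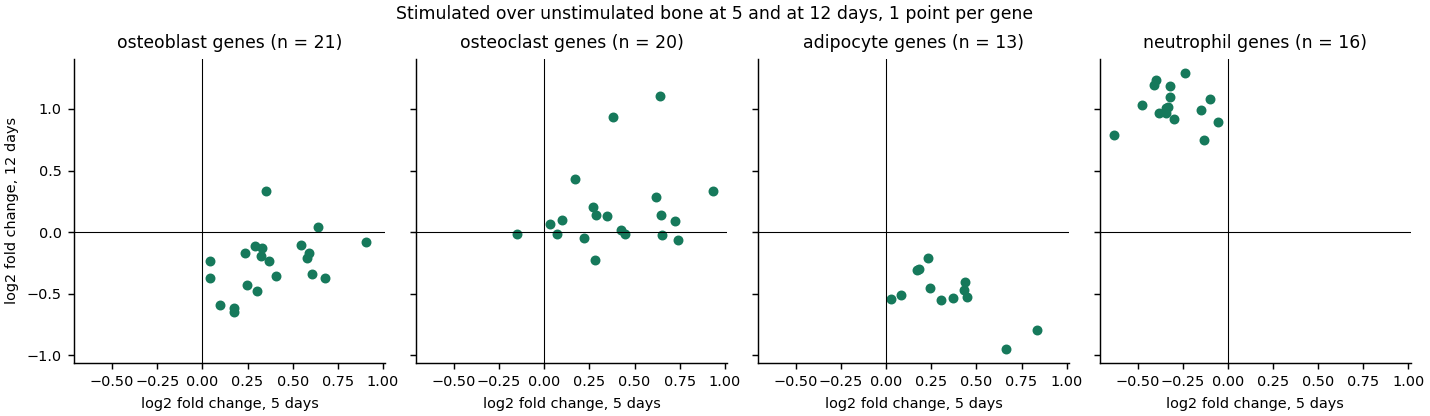
Log2 fold change of stimulated over unstimulated bone at 5 days (horizontal) and at 12 days (vertical) for the members of 4 cell type lists, 1 point per gene. Osteoblast and adipocyte genes lie right of 0 and mostly or wholly below it, and neutrophil genes lie left of 0 and above it.

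The 5-day difference in bone was also set against that in Achilles tendon, in a fit of both tissues whose bone values can differ slightly from those above. Of 19845 genes edgeR called 0 for the difference between the tissues, with 1248 (6.29%) at an unadjusted p under 0.05. The genes with the smallest p included matrix genes of bone: Tnn, which encodes tenascin W, stood at 0.65 in bone and -5.47 in tendon (difference 6.12 ± 1.09, adjusted p = 0.0832), Mmp13 at 0.60 and -3.70 (4.30 ± 0.82, adjusted p = 0.0880), and Smpd3, a sphingomyelinase gene needed for mineralisation, at 0.33 and -2.44 (2.78 ± 0.53, adjusted p = 0.0880). On the other side were Sbno2, a transcriptional coregulator, at 0.13 in bone and 1.52 in tendon (-1.40 ± 0.25, adjusted p = 0.0832), and Smad3, a TGF-beta transducer, at -0.00 and 0.82 (-0.82 ± 0.15, adjusted p = 0.0832). The bone values of these genes were small beside those of tendon. Of all genes 53.3% had the same sign in both tissues. Of the 854 genes higher in bone at an unadjusted p under 0.05 59% did, and of the 668 lower ones 59.3%. Of the named genes 6 of the 12 higher and 9 of the 12 lower ones did.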

How the data were processed

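RNA was isolated with a PureLink kit and poly-A libraries were sequenced, per the labels' protocols. Reads were handled with cutadapt 2.3, FastQC 0.11.8, STAR 2.7.8a, RSEM 1.3.3 and MultiQC 1.7 on GRCm38, per the submitters' processing notes; the sources used here name neither the annotation release nor the strand setting, so overlapping and antisense genes cannot be told apart. The authors deposited expected counts for 55426 genes, 0 of them with values that are not whole. Of the IDs, 99.7% matched GENCODE M21, the source of coordinates.

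From these counts, edgeR 4.0.16 (R 4.3.3) fitted all bone libraries with TMM scaling, filterByExpr (minimum count 10, total 15), the robust quasi-likelihood test and Benjamini-Hochberg adjustment at 0.05. The near-identical unstimulated pair was summed, which left 14 libraries. CPM use TMM-scaled totals. Standard errors are the absolute log2 fold change over the square root of F. The tissue comparison used 19845 genes. The scripts were tested on simulated data. DESeq2 1.42.0, limma 3.58.1, other scalings, filters, covariates and left-out libraries were alternatives. The covariate fit on the tendon gene score was added after seeing the data. Each score was the mean log2 CPM of its marker genes, so those genes are pulled toward 0 under their own score by construction. The tendon genes differed between the groups, so fits with that score do not check the condition.

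Named genes were, per direction, 12 genes of smallest p among those whose libraries did not overlap, with a mean of at least 1 CPM. They needed a named symbol. Mitochondrial genes, genes on chromosome Y and Xist and Tsix were left out, while other genes on chromosome X were not. Up to 4 members of each list by p and a set of bone, early response and muscle genes were also named. Mmp9 was added after its values were seen. Members and the 33 lists were chosen with earlier results of these data known.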

Additional observations from a re-analysis of the deposited data

How the results depend on the processing

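The count of 0 genes called at 5 days was 49 with DESeq2, 1 with no count filter, 4 with limma-voom, 3 with the pair kept as 2 libraries and 2 with muscle and marrow scores as covariates. It was 0 with DESeq2 size factors, with the 5-day libraries alone, with either library of the pair alone and with the skin or tendon score, and 0 to 14 with a library left out. For the 5-day minus 12-day difference DESeq2 called 60, no filter 1, the pair kept apart 1 and leaving out libraries 0 to 3. For bone minus tendon DESeq2 called 48, the pair kept apart 9 and leaving out libraries 0 to 2. Runs with the pair kept apart count near-identical libraries as separate replicates, so their p-values can be too small.

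Deviations of same-numbered stimulated and unstimulated libraries from their group correlated at -0.103, 0.00461 and -0.0762. These values cannot decide whether same-numbered samples came from the same animal, because the near-identical unstimulated libraries hardly deviate from each other. With the replicate number as a block and the pair kept apart, 0 genes were called, and 2366 of 17875 had an unadjusted p under 0.05.

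With the skin score as a covariate, list medians (log2) were 0.45 for osteoblast, 0.43 for osteoclast, 0.20 for RANKL axis, -0.11 for skin, 0.14 for B cell, 0.25 for marrow stroma, 0.44 for endothelial, 0.0338 for collagen chain, 0.0001 for collagen processing, 0.0765 for Wnt and 0.0602 for secretory genes. With the tendon score they were 0.17 for osteoclast, 0.21 for RANKL axis, -0.0787 for tendon, 0.66 for muscle, -1.14 for erythroid, -0.80 for B cell, -0.34 for macrophage, -0.30 for marrow stroma, 0.0989 for endothelial, 0.20 for collagen chain, 0.20 for collagen processing, 0.0866 for small proteoglycan, 0.13 for Wnt, 0.0348 for BMP and TGF-beta, 0.073 for IGF and FGF, 0.21 for secretory, -0.54 for cell cycle, -0.37 for interferon and -0.13 for clock genes. With the pair kept apart the vitamin D and PTH median was 0.0878.

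Without the unstimulated pair, medians were 0.51 for osteoblast, 0.47 for osteoclast, 0.21 for RANKL axis, 0.10 for B cell, 0.23 for marrow stroma, 0.37 for protease, 0.0803 for Wnt, 0.0218 for vitamin D and PTH, 0.0887 for secretory and 0.31 for interferon genes. With 1 of the other 4 libraries left out, they ranged over 0.24 to 0.35 for osteoblast, 0.28 to 0.42 for osteoclast, 0.15 to 0.31 for RANKL axis, -0.97 to -0.54 for tendon, -1.75 to -0.53 for muscle, -0.46 to -0.0957 for B cell, -0.0978 to 0.0765 for marrow stroma, -1.71 to 0.18 for Schwann, -0.10 to 0.0257 for collagen chain, 0.0288 to 0.15 for collagen processing, 0.24 to 0.33 for protease, -0.21 to -0.0512 for small proteoglycan, -0.0971 to 0.0523 for Wnt, 0.0528 to 0.097 for vitamin D and PTH, -0.31 to -0.0488 for YAP and TEAD, -0.16 to -0.0126 for mechanosensing, 0.0938 to 0.18 for secretory, -0.0569 to 0.11 for interferon, -0.32 to -0.18 for clock and -0.24 to 0.14 for glucocorticoid genes. The difference in marker share (percentage points) was 2.26 for osteoblast, -0.477 for tendon, -0.00119 for skin and 0.0363 for marrow stroma genes without the pair, and 0.598 to 1.58 for osteoblast, -0.32 to -0.132 for tendon, -0.0283 to -0.0141 for skin and -0.0193 to 0.0162 for marrow stroma genes with another library left out.

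Of 107 named genes 98 kept their direction in every alternative run. The others turned to 0.0558 (Sost), -0.0357 (Ptgs2) and 0.31 (Egr1) with the skin score, to -0.0393 (Ptgs2) and 0.20 (Acta1) with muscle and marrow scores, and to -0.0054 (Dmp1), 0.68 (Acta1), 0.20 (Myh7), 0.0405 (Igfbp6) and 0.0171 (Cry2) with the tendon score. With 1 library other than the pair left out, Sost ranged over -0.44 to 0.0463, Tnfrsf11b ranged over -0.0884 to 0.59, Ptgs2 ranged over -0.0665 to 0.28 and Egr1 ranged over -0.33 to 0.24; without the pair Egr1 stood at 0.33. The cause of these changes was not tested.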
